A study of Mus musculus with 36 samples.

Results

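The comparison set adrenalectomized mice (ADX) against sham-operated mice at circadian time 8 (CT08), by RNA sequencing of the cochlea, which turns sound into nerve signals. Its members were the 3 libraries labelled ADX at CT08 and the 3 labelled sham at CT08, 6 of the 36 libraries of the series. All animals were CBA/Sca mice aged 12 weeks. ADX removes the adrenal glands and with them the main source of corticosterone, but also of aldosterone and adrenaline, while a sham operation leaves the glands in place, so the contrast is between surgical states and not between levels of a single hormone. Neither hormone levels, hormone or salt replacement, the interval since surgery nor the animals' sex are given in the labels. The series, titled as a search for glucocorticoid-dependent circadian genes in the cochlea, sampled both groups every 4 h, at 6 times in all. The headers of the count table name the 6 columns used here CT07, 1 h earlier than the sample labels, and the labelled time is used.

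Glucocorticoids are steroid hormones whose secretion follows a daily rhythm, and they act through the glucocorticoid receptor, which binds DNA and switches on genes such as Fkbp5, Tsc22d3, Zbtb16 and Per1. The cellular clock is a feedback loop in which CLOCK and BMAL1, the product of Arntl, bind the sequence CACGTG and drive the genes of their own repressors (Per, Cry, Nr1d1, Nr1d2, Ciart, Bhlhe40 and Bhlhe41) and of output factors such as Dbp. NR1D1 and NR1D2 in turn bind the sequence TAGGTCA and repress Arntl. The cochlea is known to hold such a clock.

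No gene passed the test at CT08. With edgeR's quasi-likelihood test and Benjamini-Hochberg adjustment, 0 of 22556 tested genes (0%) had an adjusted p under 0.05, and the smallest adjusted p was 0.866. DESeq2 also called 0 genes. At an unadjusted p under 0.05 there were 966 genes (4.28%), 593 of them higher in ADX (2.63%) and 373 lower (1.65%), and DESeq2 had 859. The 3 ADX libraries lay entirely above the 3 sham libraries in 1003 genes (4.45%) and entirely below in 886 (3.93%), which makes 1889 genes (8.37%) without overlap. Of all tested genes 48% lay higher in ADX by any amount, and the median log2 fold change was -0.0046. These shares are the background for every count of members below. A test of whether the CT08 contrast differed from the mean contrast of the 5 other times called 0 genes too, with 1347 (5.97%) at an unadjusted p under 0.05 and a smallest adjusted p of 0.565, and here 48% of genes had a positive difference. DESeq2 also called 0 genes in that test, with 1301 unadjusted. The values below are therefore descriptions of 6 libraries, and all adjusted p for named genes at CT08 were 0.866 or more.

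The 6 libraries held 20669373 to 28947793 counts in ADX and 18999408 to 22746907 in sham, and mitochondrial genes took 2.32 to 2.64% of them. Levels are given in CPM, a gene's counts scaled to a common library size, in the order of replicates 1, 2 and 3, and fold changes as log2 ADX over sham with their standard error. Defining markers of the cochlea were present in all 6 libraries, among them Coch, an abundant protein of the spiral ligament, at 3970 to 5046 CPM, and Otof, the hair cell synaptic protein otoferlin, at 66.3 to 142 CPM. The libraries also held transcripts of B lymphocytes, granulocytes, red cell precursors and bone, which run through the sections below. Sham replicate 1 stood apart in its makeup. Its summed CPM of 14 B lymphocyte markers was below, and those of 21 hair cell and of 10 supporting cell and tectorial membrane markers above, those of every other library. Pituitary hormone transcripts stood out in sham replicates 2 and 3. Results that rest on these libraries are given with and without them.

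The promoters of Ciart, Per1 and Arntl are shown because these genes sit at different points of the loop, the first pair as targets of CLOCK and BMAL1 and Arntl as a target of NR1D1. They run 5' to 3' on the gene's strand from 250 bases before to 50 bases after the start of a RefSeq transcript (build GRCm38.p6), in lower case with CACGTG or TAGGTCA in capitals. Ciart lies at chr3:95882179-95882478 on the minus strand, Per1 at chr11:69098699-69098998 on the plus strand and Arntl at chr7:113207261-113207560 on the plus strand.
Ciart: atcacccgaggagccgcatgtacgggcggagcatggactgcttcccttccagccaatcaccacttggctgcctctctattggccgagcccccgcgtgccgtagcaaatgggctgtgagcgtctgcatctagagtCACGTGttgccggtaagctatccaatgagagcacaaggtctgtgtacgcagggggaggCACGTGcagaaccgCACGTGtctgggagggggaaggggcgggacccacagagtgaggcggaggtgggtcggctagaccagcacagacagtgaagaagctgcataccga
Per1: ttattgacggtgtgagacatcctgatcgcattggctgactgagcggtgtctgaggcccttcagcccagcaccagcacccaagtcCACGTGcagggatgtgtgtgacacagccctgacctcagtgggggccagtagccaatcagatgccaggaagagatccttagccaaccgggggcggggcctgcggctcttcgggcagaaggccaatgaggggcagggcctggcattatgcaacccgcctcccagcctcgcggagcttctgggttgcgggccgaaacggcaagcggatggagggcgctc
Arntl: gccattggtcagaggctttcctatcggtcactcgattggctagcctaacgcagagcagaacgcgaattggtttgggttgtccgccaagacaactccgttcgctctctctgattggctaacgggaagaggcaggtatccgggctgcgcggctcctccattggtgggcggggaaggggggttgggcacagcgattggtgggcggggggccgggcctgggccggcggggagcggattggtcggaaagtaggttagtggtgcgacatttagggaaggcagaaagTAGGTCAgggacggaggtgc
The Ciart window held 3 copies of CACGTG, the Per1 window 1 copy and the Arntl window 1 copy of TAGGTCA. Per1 and Arntl each have another RefSeq start, at chr11:69099902-69100201 and chr7:113207215-113207514, whose windows hold 0 copies of either motif and are not shown. Promoters were found for 18 of the 21 clock genes, 24 promoters in all. CACGTG, which reads the same on both strands, occurred in promoters of 5 of the genes (Bhlhe41, Ciart, Cry1, Per1 and Tef), against 7.15% of all 32851 promoters of the same length. TAGGTCA, searched on both strands, occurred in promoters of Arntl and Nfil3, against 2.61% of all promoters. The counts are of genes, some with more than 1 promoter, and the shares are of single promoters, so they are not directly comparable. The motifs do not overlap each other in these windows. A match describes the letters in the window only.

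At CT08 the clock repressors lay mostly lower in ADX, with Ciart, Nr1d1 and Per1 furthest down and Dbp beside them, while Arntl and Npas2 lay higher. Of the 10 core clock repressors 9 had a negative log2 fold change, with a median of -0.18 against -0.0046 over all genes, and 3 had no overlap between groups (Ciart, Bhlhe40 and Nr1d2). Of the 5 output factors 4 were negative, with a median of -0.13, and 2 had no overlap (Dbp and Tef). Of the 6 activators 4 were positive, with a median of 0.07. None of these 21 genes passed the test.

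Ciart encodes a repressor of CLOCK and BMAL1 that is among the most rhythmic transcripts of many tissues. It stood at 9.04, 11.32 and 7.52 CPM in ADX and at 16.6, 11.9 and 14.3 CPM in sham. The highest ADX library was just below the lowest sham library, so the groups did not overlap, but only narrowly. The means were 9.29 ± 1.92 CPM in ADX and 14.2 ± 2.35 CPM in sham (SD, n = 3 each). On the log2 scale ADX differed from sham by -0.61 ± 0.17 (unadjusted p = 0.000871, adjusted p = 0.88). Nr1d1, the gene of the haem receptor REV-ERB alpha, stood at 119, 174 and 106 CPM in ADX and at 195, 168 and 181 CPM in sham. ADX replicates 1 and 3 were below all sham libraries, and ADX replicate 2 was within their range (-0.45 ± 0.21, unadjusted p = 0.0408, adjusted p = 1). Per1, a clock repressor that glucocorticoids also induce directly, stood at 70.9, 75.7 and 67.0 CPM in ADX and at 100.5, 86.3 and 75.5 CPM in sham. The groups met at the highest ADX and the lowest sham library (-0.30 ± 0.14, unadjusted p = 0.049, adjusted p = 1).

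Dbp, a transcription factor that carries the clock's rhythm to other genes, stood at 81.5, 103 and 78.1 CPM in ADX and at 128, 114 and 119 CPM in sham. The groups did not overlap (-0.46 ± 0.24, unadjusted p = 0.0669, adjusted p = 1). Bhlhe40 (-0.19 ± 0.09) and Nr1d2 (-0.23 ± 0.14) also had no overlap, at 67.8 to 77.0 against 80.6 to 87.5 CPM and at 122 to 127 against 134 to 158 CPM. Per2, another repressor, overlapped, with 45.1, 42.9 and 49.9 CPM in ADX and 56.9, 45.5 and 49.3 CPM in sham (-0.14 ± 0.13). Cry1 was the repressor with a positive value, at 15.8, 13.1 and 15.4 CPM against 12.0, 13.1 and 13.8 CPM (0.19 ± 0.11).

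Arntl, the gene of BMAL1, stood at 14.3, 13.2 and 12.6 CPM in ADX and at 10.6, 11.05 and 10.3 CPM in sham. All 3 ADX libraries were above all 3 sham libraries (0.33 ± 0.16, unadjusted p = 0.0465, adjusted p = 1). Npas2, which can stand in for CLOCK as the partner of BMAL1, was at 6.501 to 7.92 CPM against 4.79 to 6.46 CPM, again without overlap (0.36 ± 0.25). Clock itself (0.03 ± 0.07) and Rora (-0.04 ± 0.08), which activates Arntl, had values near 0.

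**Figure D1:**
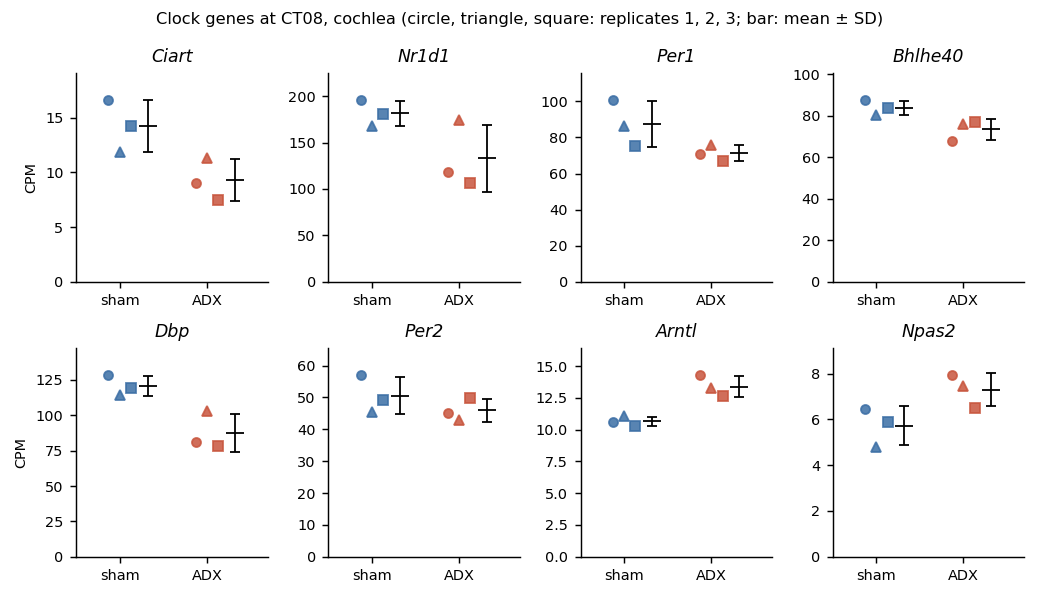
Levels of 8 clock genes at CT08 in CPM (vertical axes, each starting at 0) in the 3 sham (blue) and 3 ADX (red) libraries, with circles, triangles and squares for replicates 1, 2 and 3 and the mean ± SD beside them. Ciart, Bhlhe40 and Dbp lay lower and Arntl and Npas2 higher in ADX without overlap, and Nr1d1, Per1 and Per2 overlapped.

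The sham means of Nr1d1, Ciart and Arntl changed steeply between CT04 and CT08, and Nr1d1 was at its maximum at CT08. In sham, Nr1d1 went from 86.4 ± 13.7 CPM at CT04 to 181 ± 13.8 CPM at CT08 and 123 ± 14.96 CPM at CT12, while in ADX it was 84.2 ± 4.06, 133 ± 35.9 and 119 ± 23.9 CPM (SD, n = 3). Ciart in sham went from 4.79 ± 0.647 to 14.2 ± 2.35 and 18.4 ± 1.98 CPM over the same times, and in ADX from 5.03 ± 0.512 to 9.29 ± 1.92 and 13.98 ± 3.70 CPM. Both groups thus had their highest mean of Nr1d1 at CT08 and of Ciart at CT12, with the ADX mean below the sham mean at these maxima. Arntl ran the other way, from 27.4 ± 3.14 CPM at CT04 to 10.7 ± 0.369 CPM at CT08 in sham. In ADX its means at these times were 22.0 ± 4.29 and 13.4 ± 0.839 CPM.

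At the 5 other times the sign of the clock contrasts was mixed. The median of the 10 repressors' mean log2 fold change over the other times was 0.12, against -0.18 at CT08. Lower values were not particular to CT08, since the repressors' median was negative at CT12 too (-0.11), where Ciart was at -0.40. It was positive at CT04, CT16, CT20 and CT24 (0.10 to 0.22). The output factors had a median of -0.19 at CT12, against -0.13 at CT08, and of 0.11 to 0.25 at CT04, CT16, CT20 and CT24. Nr1d1 had log2 fold changes of 0.58 at CT16 and 0.81 at CT20, when it was low in both groups, and of -0.04 and -0.05 at CT04 and CT12. The difference between CT08 and the mean of the other times was -0.705 ± 0.18 for Ciart (unadjusted p = 0.000599, adjusted p = 0.565), -0.71 ± 0.23 for Nr1d1 (unadjusted p = 0.00442, adjusted p = 0.763) and -0.84 ± 0.27 for Dbp (unadjusted p = 0.00417, adjusted p = 0.763). Of the 10 repressors 9 had a negative difference and 6 an unadjusted p under 0.05, but none passed the test. Arntl differed by 0.48 ± 0.17 (unadjusted p = 0.0101, adjusted p = 0.763).

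**Figure D2:**
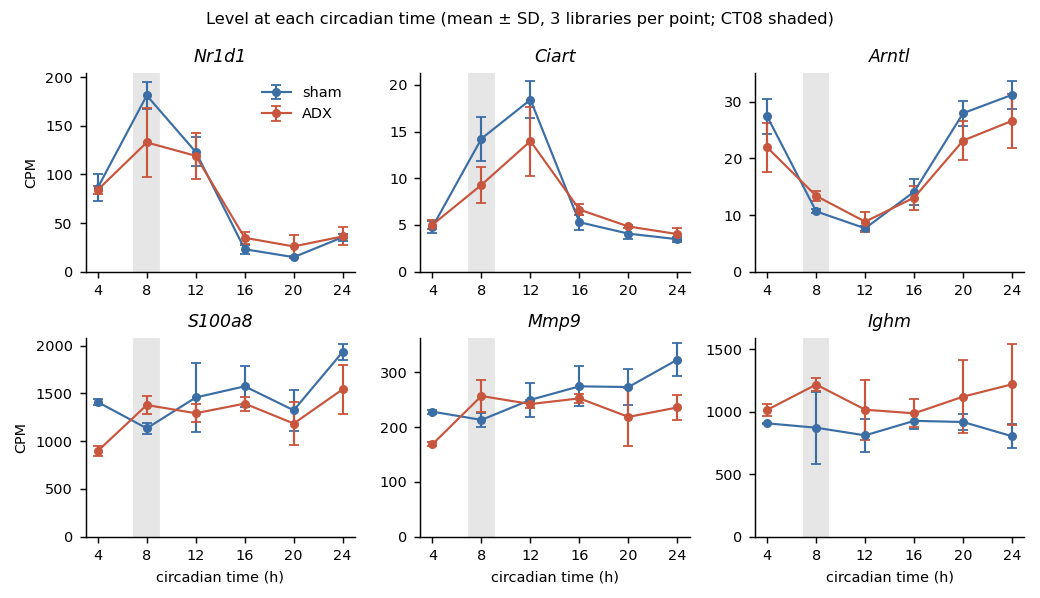
Mean ± SD of 3 libraries in CPM (vertical axes from 0) against circadian time in hours for 6 genes in sham (blue) and ADX (red), with CT08 shaded. At CT08 the ADX mean was below the sham mean for Nr1d1 and Ciart and above it for Arntl, S100a8, Mmp9 and Ighm, and the error bars of Nr1d1 and Ighm are wide in 1 group.

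Sham replicate 1 had the highest level of Ciart, Nr1d1, Per1, Per2 and Dbp among the 6 libraries. Without it the median of the repressors was -0.13 and that of the output factors -0.03, and Ciart was -0.49, Nr1d1 -0.39, Per1 -0.18, Dbp -0.42 and Arntl 0.33. All kept their sign. The part of that library's makeup in the clock values was not tested.

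Genes known to be induced by glucocorticoids did not lie lower as a group in ADX at CT08. Of 28 such genes 16 had a positive and 12 a negative log2 fold change, with a median of 0.03, and none passed the test. Fkbp5, a chaperone partner of the receptor and one of its most responsive targets, stood at 40.9, 43.5 and 39.9 CPM in ADX and at 43.3, 39.4 and 36.2 CPM in sham. The groups overlapped throughout (0.06 ± 0.22). Zbtb16, a zinc finger factor induced by glucocorticoids, was at 25.8, 23.6 and 25.4 CPM against 27.4, 20.7 and 17.4 CPM (0.19 ± 0.34), also with overlap. Tsc22d3, the gene of the leucine zipper protein GILZ, was at 95.6, 84.6 and 91.0 CPM against 99.4, 94.9 and 97.4 CPM (-0.10 ± 0.12). At CT12 the same fit gave -0.95 for Fkbp5, -0.99 for Zbtb16 and -0.52 for Tsc22d3. The differences between CT08 and the mean of the 5 other times were 0.33 ± 0.24 for Fkbp5 (unadjusted p = 0.185), 0.32 ± 0.36 for Zbtb16 (unadjusted p = 0.391) and -0.02 ± 0.13 for Tsc22d3 (unadjusted p = 0.856). CT08 and CT12 were not tested against each other.

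Dusp1, a phosphatase that switches off MAP kinases, had the smallest p of the list. It stood at 32.8, 30.1 and 34.7 CPM in ADX and at 35.3, 40.6 and 42.5 CPM in sham, without overlap (-0.28 ± 0.11, unadjusted p = 0.0182, adjusted p = 1). Errfi1, a feedback inhibitor of the EGF receptor, was at 68.6 to 75.5 CPM against 79.2 to 79.8 CPM (-0.15 ± 0.08). Ddit4, an inhibitor of mTORC1 signalling, was at 28.3 to 30.9 CPM against 33.5 to 35.3 CPM (-0.21 ± 0.14). Together with Hif3a (-0.44 ± 0.39) these were the 4 members of 28 that lay lower without overlap, and 0 lay higher without overlap. Sgk1, a kinase that promotes sodium uptake, was at -0.12 ± 0.09, and Angptl4, a lipoprotein lipase inhibitor, at 0.26 ± 0.14.

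The receptors and enzymes of corticosteroid action were close to equal in both groups. Of 10 such genes 5 were positive and 5 negative, with 0 lacking overlap. Nr3c1, the glucocorticoid receptor, stood at 121, 116 and 124 CPM in ADX and at 109, 122 and 121 CPM in sham (0.04 ± 0.07). Nr3c2, the mineralocorticoid receptor, was at 42.2 to 52.0 against 45.5 to 51.9 CPM (0.01 ± 0.11), and Hsd11b1, which regenerates active glucocorticoid inside cells, at 25.1 to 26.7 against 23.8 to 25.6 CPM (0.08 ± 0.11). Among 10 genes of sodium transport 7 were negative with a median of -0.05. Tsc22d2, related in sequence to Tsc22d3, was the member without overlap, at 40.4 to 42.5 against 45.4 to 47.6 CPM (-0.17 ± 0.08, unadjusted p = 0.036).

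The groups of stress and metabolic genes had medians near that of all genes. The medians were -0.05 for 15 immediate early genes, -0.05 for 13 heat shock genes, 0.01 for 16 genes of protein folding in the endoplasmic reticulum, -0.03 for 12 antioxidant genes and -0.06 for 19 genes of sterol and fatty acid synthesis. Of the last list 16 members were negative. Fasn, fatty acid synthase, stood at 336, 357 and 317 CPM in ADX and at 497, 339 and 355 CPM in sham (-0.24 ± 0.13). For this gene, sham replicate 1 was far above the 5 other libraries. The adipocyte lipid coat gene Plin1 followed suit, with 5.07 CPM in that library against 1.01 to 2.06 CPM in the others (-1.33 ± 0.68, and -0.64 without it). Of the 12 adipocyte genes 10 were negative (median -0.08), as were 10 of 13 cell cycle genes (median -0.09). Both cold-inducible genes, Cirbp (0.11 ± 0.11) and Rbm3 (0.01 ± 0.11), overlapped between groups.

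**Figure D3:**
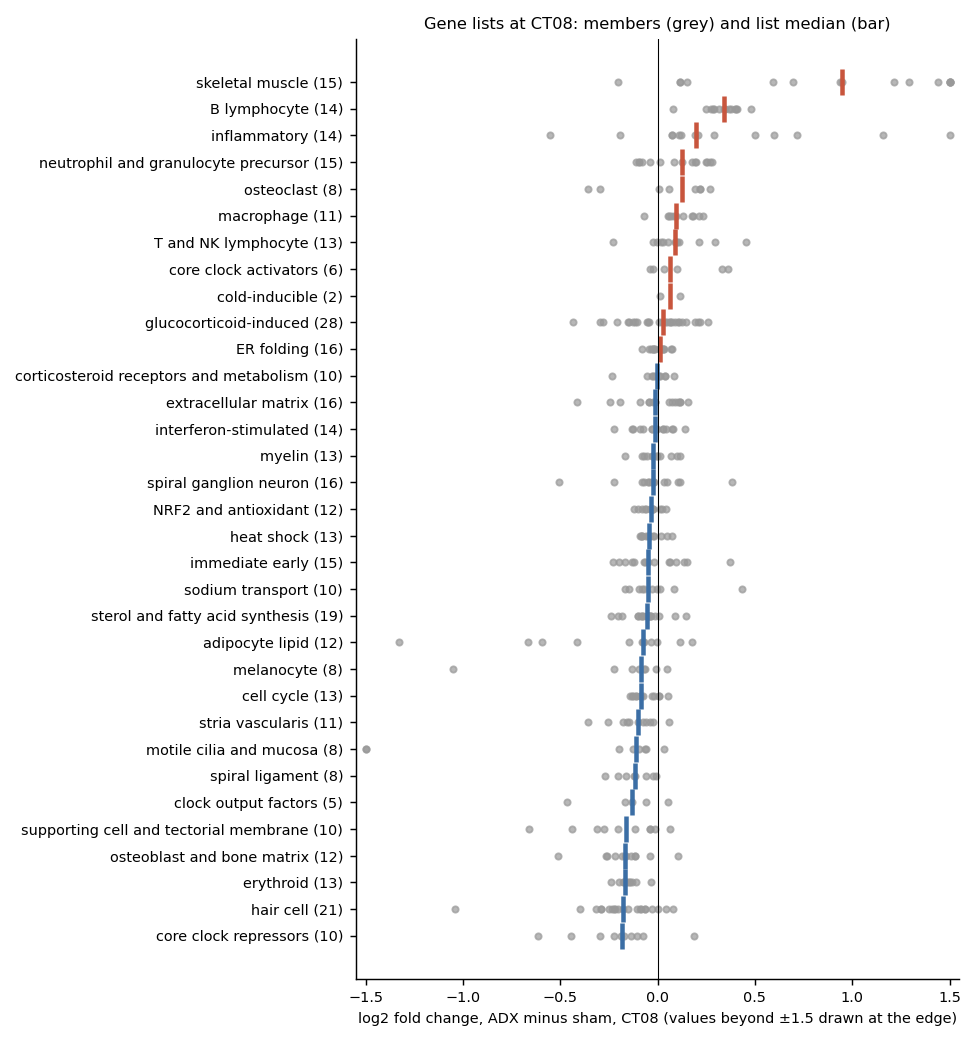
Log2 fold change of ADX over sham at CT08 (horizontal axis) for the members (grey points) of 33 gene lists, with the number of tested members in brackets and the list median as a bar, red above 0 and blue below. Points beyond 1.5 on either side are drawn at the edge, and the pituitary hormone list (median -5.65) is left out. The lists of skeletal muscle and B lymphocytes have the highest medians and the core clock repressors the lowest.

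Markers of neutrophils, which carry S100A8 and S100A9, and of granulocyte precursors had a slightly positive median log2 fold change at CT08. At each of the other times their median was negative. Of 15 markers 10 were positive at CT08, with a median of 0.13, and the median of their means over the other times was -0.26. S100a8 stood at 1363, 1483 and 1288 CPM in ADX and at 1125, 1083 and 1193 CPM in sham, without overlap (0.28 ± 0.14, unadjusted p = 0.0541, adjusted p = 1). Mmp9, a gelatinase stored in neutrophil granules and made by osteoclasts too, stood at 224, 280 and 267 CPM in ADX and at 202, 210 and 228 CPM in sham. ADX replicate 1 was within the sham range (0.27 ± 0.12, unadjusted p = 0.036, adjusted p = 1). S100a9 (0.25 ± 0.15), Retnlg (0.26 ± 0.14) and Mmp8 (0.19 ± 0.15), all of late granulocytes, had like values. The primary granule genes Mpo (-0.10 ± 0.17), Elane (-0.10 ± 0.17), Prtn3 (0.01 ± 0.17) and Ctsg (-0.08 ± 0.16), expressed in early precursors, did not lie higher. Of the 15 markers 5 were negative, not all of them named here, and a split by stage of maturation was not tested.

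All 15 markers had a positive difference between CT08 and the mean of the other times, with a median of 0.42, and 7 of them an unadjusted p under 0.05. The difference was 0.54 ± 0.13 for Mmp9 (unadjusted p = 0.000343), 0.58 ± 0.15 for S100a8 (unadjusted p = 0.000754) and 0.60 ± 0.16 for Retnlg (unadjusted p = 0.000586), each with an adjusted p of 0.565. S100a8 in sham was 1134 ± 55.4 CPM at CT08, its lowest mean of the 6 times, against 1409 ± 31.4 CPM at CT04 and 1935 ± 85.5 CPM at CT24. In ADX it was 1378 ± 98.7 CPM at CT08, 896 ± 56.0 CPM at CT04 and 1543 ± 257 CPM at CT24 (SD, n = 3). The summed CPM of the 15 markers was 8080, 10180 and 8172 in ADX and 7810, 7458 and 8187 in sham, within the 5545 to 12660 of the other 30 libraries. ADX replicate 2 had the highest sum of the 6, and without it the list's median was -0.01, with S100a8 at 0.23 and Mmp9 at 0.20. In bulk tissue, fewer cells of a type and less RNA per cell cannot be told apart.

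Macrophage markers had a similar direction, 10 of 11 positive at CT08 with a median of 0.09 and all 11 with a positive difference from the other times (median 0.19). Their summed CPM was 1921, 2390 and 1961 in ADX and 1769, 1886 and 1928 in sham. ADX replicate 2 was again the highest, and ADX replicate 1 was within the sham range. Lyz2, lysozyme of macrophages and granulocytes, was at 0.21 ± 0.15, and Aif1, a marker of macrophages, at 10.1 to 10.7 CPM in sham with all ADX libraries above (0.23 ± 0.12). Ccr2, the chemokine receptor of inflammatory monocytes, was among the 15 genes of smallest p that lay higher. It stood at 44.6, 53.6 and 57.0 CPM in ADX and at 33.1, 39.7 and 37.0 CPM in sham (0.50 ± 0.14, unadjusted p = 0.000968, adjusted p = 0.88). At the other times its values ran from -0.15 at CT20 to 0.24 at CT12, with a mean of -0.03.

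Of 14 inflammatory genes 12 were positive, with a median of 0.20, but the furthest were barely expressed. Il6, the cytokine interleukin 6, stood at 0.314, 0.523 and 0.388 CPM in ADX and at 0.0993, 0.268 and 0.158 CPM in sham, without overlap (1.16 ± 0.42, unadjusted p = 0.0164, adjusted p = 1). Cxcl1, a neutrophil-attracting chemokine, was at 0.209, 0.174 and 0.922 CPM against 0.0497, 0.179 and 0.158 CPM. Its value rested on ADX replicate 3 (1.62 ± 0.59, and 0.56 without that library). Il1b, interleukin 1 beta, also had its highest level there, 10.5 CPM against 4.05 to 5.72 CPM in the 5 other libraries (0.50 ± 0.28). Interferon-stimulated genes had no such direction, with 6 of 14 positive and a median of -0.02. Of 13 T and NK lymphocyte markers 10 were positive with a median of 0.09, and Cd3g, part of the T cell receptor complex, lay at 1.60 to 1.96 CPM against 1.19 to 1.43 CPM (0.45 ± 0.25).

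Markers of B lymphocytes and their precursors lay higher in ADX in all 14 tested members, with a median of 0.34, and their median over the other times was 0.29. Ighm, the heavy chain of IgM, stood at 1276, 1166 and 1214 CPM in ADX and at 556, 1124 and 938 CPM in sham, without overlap (0.48 ± 0.20, unadjusted p = 0.0204, adjusted p = 1). Cd79a, part of the B cell receptor, was at 127, 116 and 122 CPM against 55.5, 112 and 110 CPM (0.40 ± 0.21). Sham replicate 1 was the low library in both. The summed CPM of the markers was 2320, 2100 and 2240 in ADX and 1057, 2099 and 1882 in sham, and the other 30 libraries lay between 1366 and 2917. Without sham replicate 1 the list's median was 0.07 and Ighm was at 0.24. The difference between CT08 and the other times was 0.19 ± 0.21 for Ighm (unadjusted p = 0.389).

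Variable segments of the immunoglobulin chains went the same way. Of 100 heavy chain segments (Ighv) 87 were positive, 26 lay higher without overlap against 0 lower, and the median was 0.45. Of 88 kappa segments (Igkv) 63 were positive, 12 against 0 had no overlap, and the median was 0.45. Sham replicate 1 had the lowest sum of both families among the 6 libraries. Without it the medians were 0.29 and 0.31, with 77 and 63 segments positive, and 28 against 2 and 13 against 1 had no overlap, where 10.4% of all tested genes lay higher and 10.1% lower without overlap. These families were picked after the values were seen, and since segments are near-identical copies, reads may have been split between them and single values are uncertain. A stretch of chromosome 12 from Ighv1-66 to Ighv1-80 supplied 5 of the 15 genes of smallest p that lay higher (Ighv1-66, Ighv1-67, Ighv1-71, Ighv1-80 and Ighv8-12), and the microRNA gene Mir6388 in the same stretch had nearly the values of Ighv1-71. Ighv1-66 stood at 9.35, 1.57 and 2.33 CPM in ADX and at 1.44, 0.850 and 0.842 CPM in sham (2.11 ± 0.54). ADX replicate 1 was far above the rest. The 14 tested segments of the stretch summed to 49.0, 17.4 and 19.11 CPM in ADX and to 10.6, 11.22 and 11.5 CPM in sham, and ADX replicate 1 was the highest library in 10 of them. Without it, Ighv1-67 went from 1.76 to 0.82. Igkv14-100 was of this kind too, at 29.8 CPM in ADX replicate 2 and 0.737 to 1.85 CPM in the 5 others.

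Hair cell markers lay lower in ADX in 18 of 21 members, with a median of -0.18 a value that rested on sham replicate 1. Atoh1, a factor of hair cell development, was the member without overlap, at only 0.145 to 0.218 CPM against 0.298 to 0.526 CPM (-1.04 ± 0.52). Otof stood at 90.6, 86.5 and 73.5 CPM in ADX and at 142, 66.3 and 104 CPM in sham (-0.32 ± 0.18). The 3 sham libraries spread wider than the ADX libraries and enclosed them. Pou4f3, a transcription factor of hair cells, was at 7.71, 6.75 and 5.58 CPM against 11.08, 5.37 and 8.26 CPM (-0.29 ± 0.19), and Strc, stereocilin of the hair bundle, at -0.25 ± 0.16, whereas Slc26a5, prestin of outer hair cells, was at 0.08 ± 0.20. The summed markers reached 1133, 1060 and 1019 CPM in ADX and 1366, 1011 and 1127 CPM in sham, against 922.8 to 1319 CPM in the other 30 libraries. Without sham replicate 1 the median was -0.01 and Otof was at -0.03.

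Tecta, the tectorial membrane protein alpha-tectorin, showed the same order of sham libraries, at 28.0, 21.3 and 21.2 CPM in ADX and at 62.1, 12.5 and 37.6 CPM in sham (-0.66 ± 0.42). Of 10 supporting cell and tectorial membrane markers 9 were negative with a median of -0.16, which became 0.04 without sham replicate 1. All 8 spiral ligament markers were negative with a median of -0.12, and Car3, a carbonic anhydrase, had no overlap at 594 to 633 against 684 to 727 CPM (-0.20 ± 0.16). Of 11 markers of the stria vascularis, which makes the potassium-rich endolymph, 10 were negative with a median of -0.10. Kcne1, a potassium channel subunit, was at -0.18 ± 0.10 and Kcnq1, its pore, at -0.06 ± 0.11. Without sham replicate 1 the median of the stria list was -0.06.

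Erythroid markers were negative in 13 of 13 members with a median of -0.17, and no member lacked overlap. The median of their means over the other times was also -0.17, with medians from -0.45 at CT04 to 0.04 at CT12. At CT08 the markers' summed CPM was lowest in ADX replicate 3 (18230) and highest in sham replicate 2 (29120). Osteoblast and bone matrix markers were negative in 11 of 12, with a median of -0.17 against -0.25 over the other times. Osteoclast markers were positive in 6 of 8 (median 0.13). The 16 extracellular matrix genes had a median of -0.01, and Thbs4, a thrombospondin of tendon and muscle, was the member without overlap, at 12.8, 16.03 and 13.6 CPM against 22.25, 17.6 and 16.7 CPM (-0.41 ± 0.21). Spiral ganglion neuron, myelin, melanocyte and motile cilia markers had medians of -0.03, -0.02, -0.08 and -0.11, with 5 of 16, 4 of 13, 1 of 8 and 1 of 8 members positive.

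Pituitary hormone and skeletal muscle transcripts were high in single libraries and had extreme fold changes. Gh, growth hormone of the pituitary, stood at 6.63, 2.22 and 2.13 CPM in ADX and at 0.596, 86.0 and 496 CPM in sham. Sham replicates 2 and 3 were far above the rest and sham replicate 1 below all ADX libraries. Prl, prolactin, was at 0.291 to 0.663 CPM in ADX and at 0.149, 12.8 and 68.4 CPM in sham, and Pomc, the precursor of ACTH, at 0.663 to 1.26 CPM in ADX and at 1.09, 6.75 and 216 CPM in sham. All 7 tested pituitary genes had negative log2 fold changes (median -5.65), and with sham replicates 2 and 3 both left out the median was 1.57. Their part in other genes' values was not tested. Skeletal muscle genes had a median of 0.95, which became -0.01 without ADX replicate 3, where Ckm, muscle creatine kinase, was at 6.501 CPM against 0.454 to 0.697 CPM in the 5 others.

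**Figure D4:**
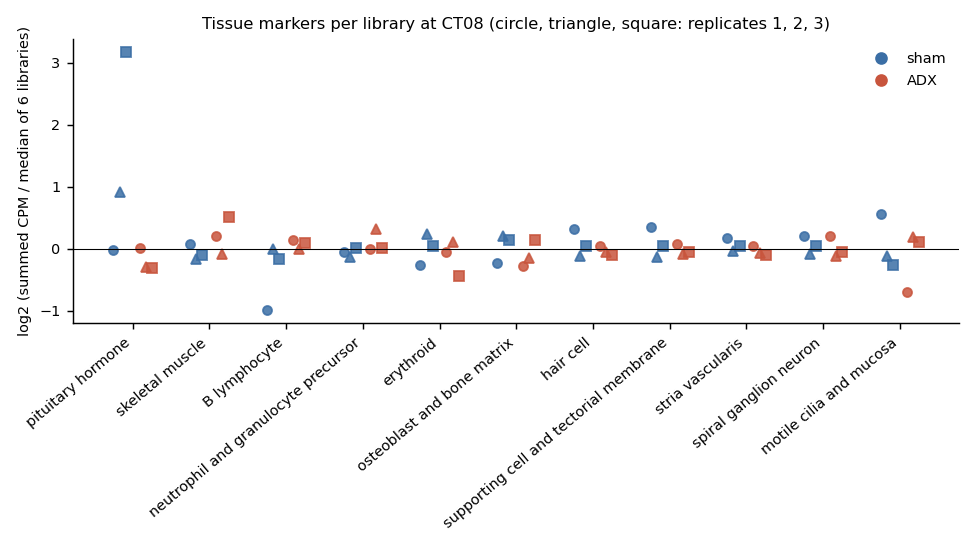
Summed CPM of the markers of 11 tissues or cell types in each of the 6 libraries, as log2 of the ratio to the median of the 6 (vertical axis), in sham (blue) and ADX (red), with circles, triangles and squares for replicates 1, 2 and 3. Sham replicate 3 stands out for pituitary hormones, sham replicate 1 is lowest for B lymphocytes and highest for hair cells, and ADX replicate 3 is highest for skeletal muscle.

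Beyond the lists, the genes of smallest unadjusted p included few with large, even changes in the libraries. Cfb, complement factor B of the alternative pathway, stood at 16.26, 17.5 and 20.8 CPM in ADX and at 12.96, 13.4 and 13.3 CPM in sham (0.46 ± 0.11, unadjusted p = 0.00019, adjusted p = 0.866). The sham libraries were tightly grouped and all ADX libraries above them, and the mean over the other times was 0.26. Tmsb10, the actin-binding peptide thymosin beta 10, stood at 70.4, 70.5 and 75.9 CPM against 44.2, 59.0 and 49.6 CPM (0.50 ± 0.13, unadjusted p = 0.000479, adjusted p = 0.88). Its X-linked relative Tmsb4x, thymosin beta 4, was at 902, 1009 and 927 CPM against 783, 832 and 784 CPM (0.24 ± 0.07) and had a difference from the other times of 0.36 (unadjusted p = 8.35e-05, adjusted p = 0.565). Both kept these orders without overlap. Others of the 15 highest-ranked genes above sham were Phf11b (0.68 ± 0.18), the mitochondrial aldehyde dehydrogenase Aldh1b1 (0.51 ± 0.14), the TNF receptor adaptor Tradd (0.28 ± 0.08) and the processed pseudogenes Gm13357 and Gm6863.

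Mrps21, a protein of the small mitochondrial ribosome subunit, stood at 24.9, 25.7 and 26.4 CPM in ADX and at 23.1, 21.9 and 21.6 CPM in sham. The difference was small and even over the libraries (0.21 ± 0.05, unadjusted p = 0.000486), and it had the smallest p of the difference from the other times (0.27 ± 0.06, unadjusted p = 7.22e-05, adjusted p = 0.565). Of the 10 genes with the smallest p in that test 8 coded for proteins, among them Tomm7, a subunit of the import pore of the outer mitochondrial membrane (CT08 0.16 ± 0.05), and Msrb1, a methionine sulfoxide reductase (0.20 ± 0.08). Prr13 (0.19 ± 0.06), Gapt (0.31 ± 0.10) and the microRNA gene Mir7050 (0.42 ± 0.14) were also among them, each higher in ADX at CT08 without overlap. Mir7050 is only 60 bases long, and whether its reads belong to an overlapping gene was not tested.

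Among the 15 lower genes without overlap, Fancc and Ciart had the smallest p. Fancc, of the Fanconi anaemia DNA repair complex, stood at 22.4, 22.6 and 23.7 CPM in ADX and at 25.4, 28.6 and 24.9 CPM in sham (-0.20 ± 0.05, unadjusted p = 0.000335, adjusted p = 0.88). Srgap2, a regulator of cell protrusions, was at 114 to 121 against 127 to 133 CPM (-0.14 ± 0.04), and Sox12, a transcription factor, at 22.1 to 23.3 against 24.4 to 27.3 CPM (-0.20 ± 0.06). All 3 were small shifts without overlap. Krt15, a keratin of basal epithelium, was larger and uneven, at 0.907, 2.66 and 1.31 CPM against 7.202, 2.73 and 2.68 CPM (-1.38 ± 0.41, and -0.75 without sham replicate 1). The other lower genes were Tmprss9, Hmgxb3, Xpnpep3, Mab21l2 and 6 non-coding genes, 3 of them small nucleolar RNAs (Gm23262, Snord69 and Gm25795). These 3 are 80 to 168 bases long, and whether their reads belong to overlapping genes was not tested.

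**Figure D5:**
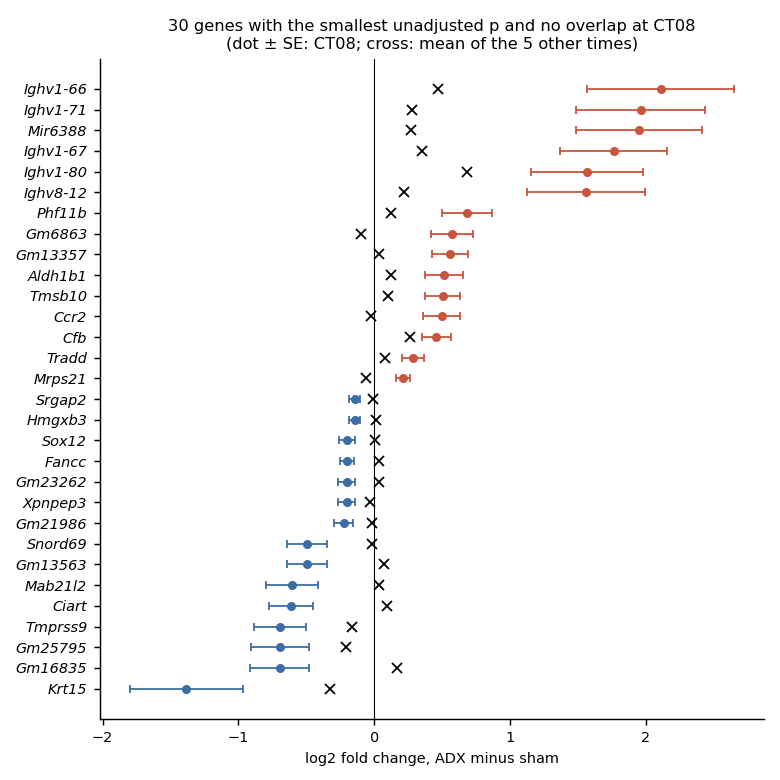
Log2 fold change of ADX over sham (horizontal axis) at CT08 (dots with standard error) for the 15 higher (red) and 15 lower (blue) genes of smallest unadjusted p among those with no overlap and at least 1 CPM, and the mean over the 5 other times (crosses). Most crosses lie near 0, and the immunoglobulin segments have the longest error bars.

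Gene length moved with direction. The 593 genes at an unadjusted p under 0.05 that lay higher had a median length of 1081 bases in the deposited table, the 373 that lay lower 1665 bases and all tested genes 1614 bases. Among the 17590 genes with at least 1 CPM, the median log2 fold change was 0.02 in the shortest part of them and -0.02 in the longest, after a split into 3 equal parts. Short genes named above include Tmsb10 (579 bases) and Mrps21 (461 bases), and the part of length in their values was not tested.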

How the data were processed

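Cochlear RNA went into strand-specific messenger RNA libraries, read from 1 end in pools of 6 libraries, per the labels. The aligner was STAR 2.4.0i and the genome mm10, per the submitters' processing notes. The counter, its annotation, its strand setting and the pool of each library were not given in the sources used here. Overlapping and antisense genes may therefore share reads. The deposited table holds raw whole-number counts for 39017 Ensembl genes in 36 libraries, beside gene lengths. Symbols were found for 37607 genes (96.4%), and coordinates are from GENCODE M21 on GRCm38, the assembly of mm10. The labels call the libraries samples and name no animals, so the spread behind a p-value may be technical. Pairs of replicates gave chi-square per degree of freedom of 6.68 to 18.1 over genes with at least 20 counts, beyond sampling noise, and none was treated as a duplicate.

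The main fit used edgeR 4.0.16 under R 4.3.3 (TMM, filterByExpr, glmQLFit and glmQLFTest), with 12 group means on all 36 libraries and 24 residual degrees of freedom. It tested 22556 genes. The 16461 genes it filtered out carried 0.0779% of counts. Benjamini-Hochberg adjustment ran over the whole table, with a threshold of 0.05. CPM are counts scaled to TMM library sizes. No library was dropped or imputed in the main fit. The test was tried on simulated counts, but the outcome is not given here and no result rests on it. The named genes were the 15 higher and 15 lower with the smallest p at CT08, no overlap and a mean of at least 1 CPM, the 10 with the smallest p of the difference from the other times, and up to 6 members per list beside its defining ones. Other list members are named for their role, after their values were seen. Not every gene this rule takes is described, and 1 is not reported here. The comparison, the 34 lists and the members were chosen with earlier results of these data known. Other settings were limma-voom (limma 3.58.1), DESeq2 1.42.0, DESeq2's scaling in edgeR, no filter, the replicate number as a block, the 6 libraries alone and each library left out. Leaving out sham replicates 2 and 3, and replicate 3 of both groups, was added after seeing the data.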

Additional observations from a re-analysis of the deposited data

How the results depend on the processing

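No setting called a gene at CT08. The difference from the other times was not tested with the 6 libraries alone, with limma-voom or in the fits added after seeing the data. The settings that tested it called 0 genes. The genes at an unadjusted p under 0.05 at CT08 numbered 966, 552 with the 6 libraries alone, 1354 without the filter, 1720 without sham replicate 2 and 773 without replicate 3 of both groups. For the difference they numbered 1347, and 2263 without sham replicate 2. Of 43 genes carried through 14 settings, 38 kept their sign in all. Nr3c1 ranged from -0.013 (without sham replicate 1) to 0.069 when single libraries were left out. Leaving out 1 library at a time, the list medians ranged from -0.0082 to 0.14 for clock activators, -0.20 to -0.034 for clock output factors, -0.089 to 0.091 for immediate early genes, -0.057 to 0.0051 for antioxidant genes, -0.079 to 0.12 for T and NK lymphocytes, 0.12 to 0.30 for inflammatory genes, -0.14 to -0.055 for the spiral ligament, -0.011 to 1.34 for skeletal muscle and -5.77 to -2.36 for pituitary hormones. With sham replicates 2 and 3 both left out, 1 sham library at CT08 is assumed to vary like the other groups, and 2399 genes had an unadjusted p under 0.05. In that setting Fkbp5 was at -0.062, Zbtb16 at -0.14, Gh at 2.68 and Prl at 1.57. The medians there were -0.30 for clock repressors, -0.26 for clock output factors, -0.078 for glucocorticoid-induced genes, -0.19 for sodium transport, -0.18 for sterol and fatty acid synthesis, 1.14 for B lymphocytes, 0.27 for macrophages, 0.34 for inflammatory genes, 0.080 for osteoblasts, 0.58 for osteoclasts, -0.54 for hair cells, -0.20 for the spiral ligament, -0.22 for the stria vascularis, -0.22 for myelin, 1.57 for pituitary hormones and 0.23 for the cell cycle. The cause was not tested. The replicate number as a block called 0 genes, with 964 at an unadjusted p under 0.05. Same-numbered deviations at CT08 correlated between -0.07 and 0.16, and 3 such pairs cannot show whether the replicate numbers pair the libraries. Il6 and Cxcl1 lay under 1 CPM in all 6 libraries, so their fold changes rest on few counts.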
